A study of Labrus bergylta with 25 samples.

Results

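Lipid and cellulose were compared in Segment 1 of the ballan wrasse gut, the bulbous front part of a digestive tract that has no stomach. The members were chosen by the treatment in the labels, 6 libraries labelled Lipids and 7 labelled Cellulos, 13 of the 25 libraries of the series. All came from juvenile fish recorded as female, fasted before the trial, and each library was made from the RNA of 1 intestine that had been removed whole and kept for 1 h in oxygenated Ringer's solution. Lipid intestines held cod liver oil that had been digested with a bacterial lipase in phosphate buffer, titrated with NaOH, heated to stop the enzyme and mixed with Tween 20. Cellulose intestines held microcrystalline cellulose powder in water with a little Brilliant Blue dye. Every bolus weighed 0.1% of the body weight when it was put in. How much of it was still in Segment 1 when the tissue was taken is not among these data. In other intestines, the paper recorded faster emptying of this segment with cellulose than with lipid. Filling when the tissue was taken can therefore differ between the groups, and it cannot be told apart from the lipid. The remaining libraries came from 6 intestines with trypsin-digested casein (labelled Proteins) and 6 with nothing inside (labelled Empty). The lipid bolus also differed from cellulose in buffer, base, detergent and spent enzyme, and these cannot be told apart from the lipid itself.

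Digested fat reaches the gut lining as free fatty acids and monoglycerides. Absorptive cells take them up, rebuild them into triglycerides and export these in lipoproteins, and their oxidation is under the control of nuclear receptors that bind fatty acids. In mammals, enteroendocrine cells also sense luminal fatty acids and release peptides such as cholecystokinin, which slows emptying of the upper gut. Cellulose is not digested by the fish and fills the lumen without feeding it. The comparison therefore asks what luminal lipid changed in the transcriptome within 1 h beyond the presence of a bolus. The deposited table lists 20208 genes under identifiers without names, and 0 of them matched a RefSeq gene table of the species. The fatty acid, peptide and cell type genes were therefore not analysed here, the tissue was not checked against marker genes, and genes are described by level, size of difference and, for 4 of them, identifier.

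Reads on the listed genes ranged from 11803381 to 15686525 in the lipid libraries (median 13634560) and from 10160088 to 19732023 in the cellulose libraries (median 13362461). The groups overlapped in each of 4 measures of the libraries, namely the total of the deposited values, the number of genes at 0, and the shares of the most abundant gene and of the 100 most abundant genes (two-sided exact permutation tests over 1716 divisions, adjusted p = 0.801 in each). Genes at 0 numbered 210 ± 85.5 (SD, n = 6) with lipid and 260 ± 189 (SD, n = 7) with cellulose. Cellulose library 27 had the most, 659. Among the 36 pairs of libraries within the 2 groups none was a copy of another, since the lowest chi-square of their reads was 28.1 per degree of freedom, where sampling alone gives about 1.

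Few genes separated lipid from cellulose. Each gene's values were compared as log2(value + 1), where a value is the read count divided by the size factor of the library, over the 19033 genes above 10 in at least 5 of the 25 libraries. With limma on all 4 groups, 208 genes (1.09% of those tested) had an unadjusted p under 0.01, 95 higher with lipid (0.499%) and 113 lower (0.594%). A threshold of 0.01 passes 190.3 of 19033 genes where no gene differs, so the share called in this fit was close to that level. After Benjamini-Hochberg adjustment of the limma p values no gene was under 0.05 (smallest adjusted p = 0.108), and 1124 genes (5.91%) had an unadjusted p under 0.05, 530 higher and 594 lower. On the reads behind the values, in all 25 libraries, edgeR gave 230 genes with a p under 0.01, 129 higher and 101 lower, and 0 with an adjusted p under 0.05. DESeq2 gave 326 and 3. With only the 2 groups compared, limma gave 289 and 0. The 326 and the 289 lie farther above 190.3 than the 208 of the main fit. In bulk tissue, fewer cells of a type and less RNA per cell cannot be told apart.

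The size of the difference depended on how strongly a gene was expressed. Genes were placed in 6 classes by their mean value over the 25 libraries. The median absolute log2 fold change of all genes tested was 0.39 in the 1043 genes with a mean under 10, 0.28 in the 4432 genes from 10 to 50, 0.17 in the 5059 from 50 to 200 and 0.12 in the 5919 from 200 to 1000. It was 0.12 again in the 2176 genes from 1000 to 5000 and 0.22 in the 404 genes at 5000 or more. The error moved with it. The median standard error of the log2 fold change was 0.57 in the lowest class and 0.15 from 200 to 1000. The median difference was smaller than the median standard error in each class but the highest, where it was 0.22 against 0.18. Error alone gives a median absolute difference below the standard error, so this does not show that the other classes held no difference. Counting noise made up a median of 24.6% of the variance between libraries of a group in the lowest class, 7.25% from 200 to 1000 and 0.238% at 5000 or more. At high levels the spread was therefore mostly between intestines or their preparation, which were not separated by the design.

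**Figure D1:**
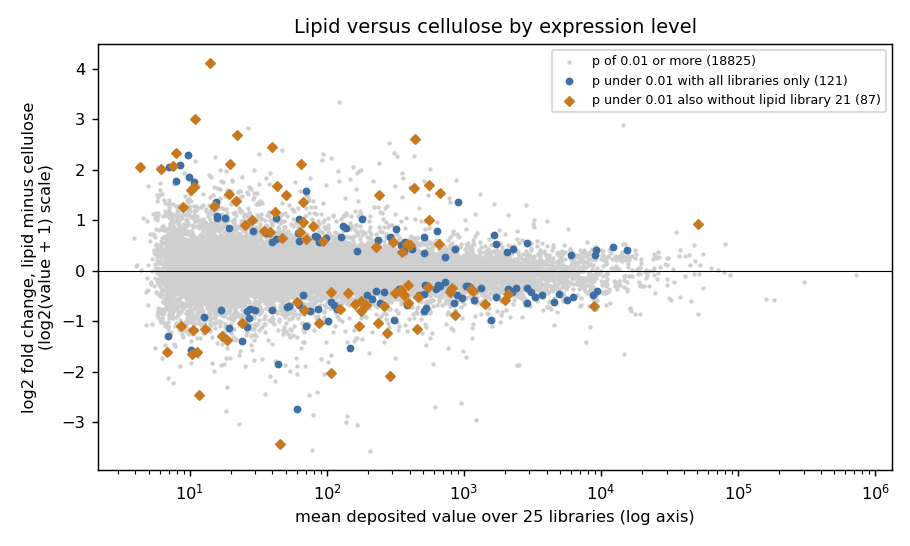
Log2 fold change of lipid minus cellulose against the mean deposited value over 25 libraries (log axis), 1 point per gene tested, for 18825 genes with a p of 0.01 or more and 208 under it. Of the 208, 87 (diamonds) were also under 0.01 without lipid library 21 and 121 (blue) were not; the cloud narrows from left to right.

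These errors also set how large a difference could have been missed. For 13616 of the 19033 genes (71.5%), the 95% interval of the log2 fold change lay wholly between -1 and 1, a change of less than 2-fold either way. The share was 4.99% for genes with a mean under 10, 39.1% from 10 to 50, 80.6% from 50 to 200, 91.7% from 200 to 1000, 91.9% from 1000 to 5000 and 80.9% at 5000 or more. A change of more than 2-fold was thus bounded for most genes above a mean of 50 and for few genes below 10. A log2 fold change above 1 in absolute size was seen for 610 genes, but only 70 of these had a p under 0.01, 42 higher and 28 lower with lipid. Of the 610, 405 had a mean value under 50.

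Among the 208 genes, the size fell with level in the same way. The median absolute log2 fold change of the genes under p 0.01 was 2.02 in the lowest class (13 genes), 1.16 from 10 to 50 (50 genes), 0.75 from 50 to 200 (46 genes) and 0.53 from 200 to 1000 (60 genes). It was 0.45 from 1000 to 5000 (28 genes) and 0.47 at 5000 or more (11 genes). These sizes follow from the threshold, because a gene with a large error needs a large difference to pass. The smallest that passed was 1.10 in the lowest class and 0.22 from 200 to 1000. A gene with a mean under 10 passes the filter only through libraries where it is high, and these can be the lipid libraries. Of the 13 genes in the lowest class, 10 were higher and 3 lower with lipid. How many of them passed the filter through 1 group was not counted. In the 2 highest classes none of the 39 genes reached a log2 fold change of 1, and the largest was 0.98.

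The pseudocount mattered only for weakly expressed genes. With 0.1 in place of 1, the median absolute log2 fold change of the 13 genes in the lowest class was 2.82, and with 5 it was 1.10. For the 11 genes at 5000 or more it was 0.47 with each of the 3 pseudocounts.

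The share of genes under p 0.01 lay near that over all genes in each class but the highest, where it was 11 of 404 genes. It was 1.25% under 10, 1.13% from 10 to 50, 0.909% from 50 to 200, 1.01% from 200 to 1000, 1.29% from 1000 to 5000 and 2.72% at 5000 or more, against 1.09% over all genes. Below a mean of 1000, 84 genes were higher and 85 lower in limma, 114 and 81 in edgeR and 150 and 117 in DESeq2, both on 25 libraries. At 1000 or more, 11 were higher and 28 lower, and upper quartile scaling gave 12 and 25, TMM scaling 11 and 26, edgeR 15 and 20 and DESeq2 18 and 41. In limma the lean to lower genes lay from 1000 to 5000 (5 higher, 23 lower), while at 5000 or more 6 were higher and 5 lower. Over both classes the lean was smaller without lipid library 9 (36 higher, 45 lower) and without cellulose library 16 (11 and 14). It was larger without cellulose library 23 (5 and 33) and without cellulose library 27 (6 and 37). Lower genes outnumbered higher ones in each of the 13 fits that left out 1 library. These fits share most of their libraries, so this is not a separate test. At 5000 or more the split was unstable, with 21 higher and 8 lower without lipid library 9 and 2 and 9 without cellulose library 23. The median log2 fold change of all genes tested was -0.04 from 1000 to 5000 and 0.08 under 10. Without lipid library 21 the share at 5000 or more was 0.495%, and the higher and lower genes at 1000 or more numbered 1 and 6.

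**Figure D2:**
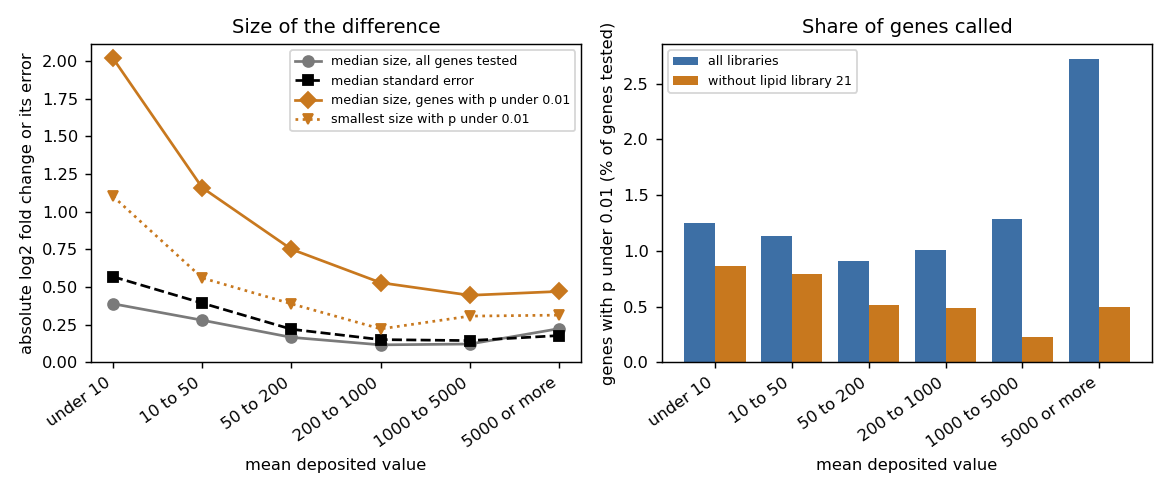
Left, median absolute log2 fold change of all genes tested and of those with a p under 0.01, the smallest that passed and the median standard error, by class of mean deposited value. Right, share of genes tested with a p under 0.01 in each class, with all libraries and without lipid library 21; the highest class goes from 2.72% to 0.495%.

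Lipid library 21 stood apart from the other lipid libraries. Its depth was ordinary, at 13842685 reads, while its 355 genes at 0 were the most of the lipid libraries, where the others had 113 to 250. Its log2 value differed by more than 1 from the mean of the other 5 lipid libraries for 2756 genes, against 1518 to 2066 for each other lipid library measured in that way. Cellulose libraries measured against their own group gave 1481 to 2639, with the most in library 27. Among the 13558 genes with a mean of at least 50 these numbers were 1099 for library 21 and 495 to 853 for the other lipid libraries, and 419 to 792 for the cellulose libraries. Its departure was more than 1 for 43.9% of the genes under 10, 5.76% from 200 to 1000 and 8.91% at 5000 or more. These shares were taken for library 21 alone. Under 10, the median SD of the log2 values was 0.83 among the other 5 lipid libraries and 0.97 among the cellulose libraries.

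The distance from cellulose, taken over all genes without regard to p, showed the same library. At 5000 or more, the median absolute log2 distance from the cellulose mean was 0.56 for library 21. It was 0.33 for lipid library 29, 0.28 for library 18, 0.22 for libraries 9 and 28, and 0.12 for library 14. Each cellulose library lay at 0.18 to 0.24 from the mean of the other 6. Lipid libraries 9, 14 and 28 thus lay within or below the spread among the cellulose libraries themselves at this level, and lipid libraries 18, 21 and 29 lay above it. From 200 to 1000 the distances were 0.13 to 0.22 for the other lipid libraries, 0.29 for library 21 and 0.16 to 0.25 for the cellulose libraries. Below 50, library 21 was the farthest of the lipid libraries but not of all libraries. Cellulose library 27 lay at 1.05 under 10, against 0.89 for library 21, and at 0.63 against 0.62 from 10 to 50.

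The first principal component of the 13 libraries, made from all genes tested without the groups, held 14.3% of the variance. Library 21 had a score of 95.7 on it, the next lipid libraries 34.4 (library 18) and 19.1 (library 29), and lipid libraries 9, 14 and 28 scores of -14.7, -5.76 and -8.18. The cellulose scores ranged from -39.5 to 1.29. The mean was 20.1 ± 41.5 (SD, n = 6) with lipid and -17.2 ± 12.8 (SD, n = 7) with cellulose, and the difference did not pass after adjustment for 3 components (two-sided exact permutation test, p = 0.0181, adjusted p = 0.0542). Library 21 alone made 65.1% of the sum of squares along this component. When it was left out and the components were made again, the first gave an adjusted p of 0.693 (two-sided exact permutation test). Leaving out lipid library 9, 14, 18 or 28 or cellulose library 25 instead gave adjusted p values of 0.0189 to 0.0417 (exact permutation tests). Components 2 and 3 did not separate the groups (exact permutation tests, adjusted p = 0.868 and 0.416), and cellulose library 27 stood alone on the second at 89.4.

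**Figure D3:**
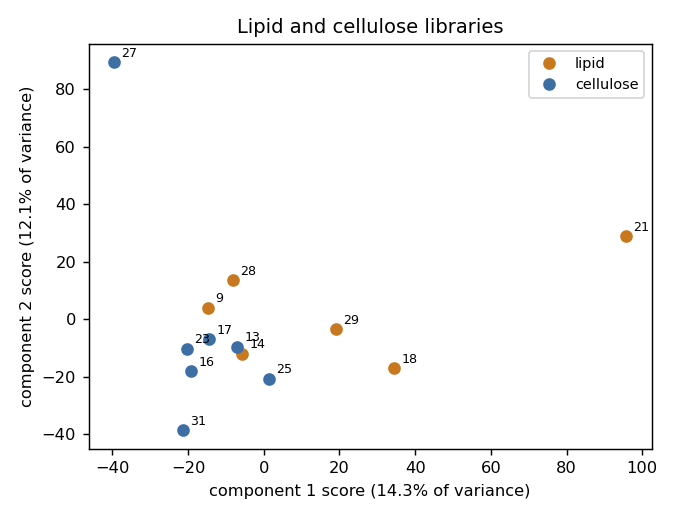
Scores of the 6 lipid and 7 cellulose libraries on the first 2 principal components of all genes tested, with 14.3% and 12.1% of the variance; numbers are library numbers. Lipid library 21 lies at 95.7 on the first and cellulose library 27 at 89.4 on the second, and lipid libraries 9, 14 and 28 lie among the cellulose libraries on the first.

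More of the list rested on this library than on any other of the 13. Without library 21, limma gave 106 genes with a p under 0.01 (0.557%), 51 higher and 55 lower. Of the 208 genes, 87 were on that list and 121 were not, while 19 genes were new. All 208 kept their direction and an unadjusted limma p under 0.05 without library 21. The same held without each other library. The 208 were chosen in these same data, so this is a description and not a separate test. Leaving out any other lipid library took 38 to 87 of the 208 genes off the list, and leaving out a cellulose library 53 to 82. Without library 21, their median absolute log2 fold change went from 0.71 to 0.63, and the difference moved towards 0 for 172 of them. Library 21 was the lipid library farthest from cellulose in the direction of the call for 100 of the 208 genes (48.1%), 48 of the higher and 52 of the lower, and for 32% of all genes tested. The next lipid library by this measure was library 29, with 34 of the 208 genes.

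The loss was uneven across levels. At a mean under 10, 7 of the 13 genes stayed under p 0.01 without library 21, as did 27 of 50 from 10 to 50, 19 of 46 from 50 to 200 and 27 of 60 from 200 to 1000. From 1000 to 5000 it was 5 of 28, and at 5000 or more 2 of 11. Abundant genes were lost without other libraries too. Of the 39 genes at 1000 or more, 7 stayed without library 21, 15 without lipid library 29, 16 without cellulose library 25, and 20 to 35 without each of the other 10. Of the 169 genes below 1000, 80 stayed without library 21, 106 without library 29 and 121 without library 25. The size of the difference over all genes of a class moved with it. At 5000 or more the median absolute log2 fold change was 0.22 with all libraries and 0.15 without library 21, and between 0.22 and 0.26 without any other lipid library. From 200 to 1000 it went from 0.12 to 0.10 without library 21. For the 39 genes at 1000 or more, its median log2 distance from the cellulose mean in the direction of the call was 0.88, against 0.18 (library 14) to 0.56 (library 29) in the others. All 39 of these genes lay on the called side in libraries 18, 28 and 29 as well, 36 in library 9 and 34 in library 14. The 39 were chosen by their p in these same libraries, which favours genes where most lipid libraries lie on the called side. These distances and counts are therefore a description of the list and not a separate test.

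Other libraries moved the list in the opposite way. Without lipid library 9 there were 296 genes under p 0.01, and without lipid library 14 there were 304, of which 150 and 134 were new. At a mean of 1000 or more, the number went from 39 to 81 without library 9 and to 69 without library 14. Leaving out lipid libraries 18, 28 or 29 gave 176, 230 and 170 genes, and leaving out a cellulose library gave 160 to 230. The number was lowest without library 21. On the reads, edgeR fell from 230 to 114 genes and DESeq2 from 326 to 172 when library 21 was left out of the 25. No other library was left out alone in the fits on reads, so these do not rank library 21 among the libraries. Fitting limma with 1 weight per library gave library 21 the lowest weight of the lipid libraries, 0.604 against 0.796 to 1.62, and 237 genes under p 0.01, of which 161 were on the list of 208.

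**Figure D4:**
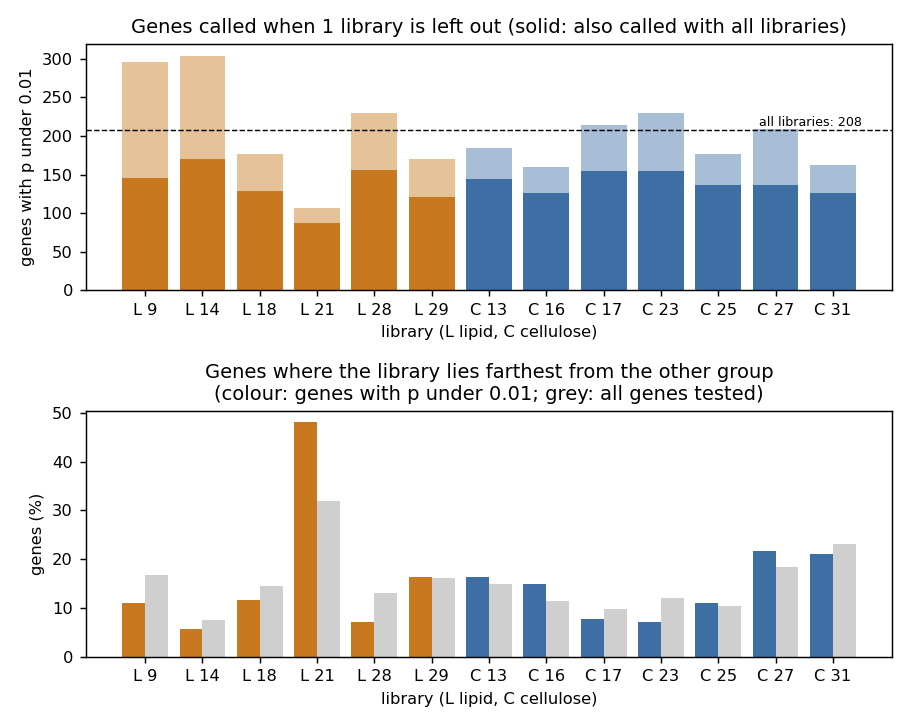
Top, genes with a p under 0.01 when each lipid (L) or cellulose (C) library is left out, with the part also found with all libraries in solid colour and the 208 of the full fit as a dashed line. Bottom, percentage of the 208 genes (colour) and of all genes tested (grey) for which the library lies farthest from the other group; library 21 has 48.1% and 32%.

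The departure of library 21 was shared in part by single intestines of other treatments. Over the 13558 genes with a mean of at least 50, its difference from the other lipid libraries had a Pearson correlation of 0.36 with the difference of empty library 24 from the other empty libraries, and of 0.34 with that of protein library 33 from the other protein libraries. Genes are not independent replicates, and the values come from separate libraries. The next was 0.17 (protein library 11), the cellulose libraries lay between -0.13 and 0.07, and the lowest was -0.26 (protein library 32). Of the 1099 genes in which library 21 departed by more than 1, 818 (74.4%) went the same way in empty library 24 and 822 (74.8%) in protein library 33. Over all 13558 genes these shares were 62.9% and 61.2%. Empty library 24 and protein library 33 were picked after the values were seen, as the highest correlations of the libraries compared. What these intestines and that of library 21 had in common was not tested.

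For 58 of the 19033 genes tested (0.305%), 28 higher and 30 lower with lipid, p was under 0.01 with all libraries and in each of the 13 fits that left out 1. These fits share most of their libraries, so the 58 are a description of the list and not a separate test of it. Their log2 fold changes ranged from 0.37 to 4.11 in the higher genes and from -2.47 to -0.35 in the lower. By level, 3 had a mean under 10, 18 lay from 10 to 50, 9 from 50 to 200, 23 from 200 to 1000, 3 from 1000 to 5000 and 2 at 5000 or more. The 3 under 10 were all higher with lipid, and whether they passed the filter only through the lipid libraries was not checked. Over all genes tested, the values of the 6 lipid and 7 cellulose libraries did not overlap for 31 genes (0.163%), 19 higher (0.0998%) and 12 lower (0.063%) with lipid. Of these 31 genes, 13 higher and 7 lower were on the list of 208. Some genes part in this way where no gene differs, and their number was not computed. Both properties, p under 0.01 in all 13 fits and no overlap, were met by 8 of the 19033 genes tested. Of the 8, 7 were higher and 1 lower with lipid. The properties are not independent, since groups that do not overlap tend to give a small p. The 8 include the first 2 genes below, of which LABE_00071891-RA passed the filter only through lipid.

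LABE_00025806-RA had the smallest p of the comparison and was higher with lipid. Its value was 608 in lipid library 9, 628 in 14, 425 in 18, 981 in 21, 429 in 28 and 394 in 29. With cellulose it was 277 in library 13, 130 in 16, 264 in 17, 246 in 23, 136 in 25, 109 in 27 and 142 in 31. The 6 lipid libraries all lay above the highest cellulose library, and library 21 was the highest of them. The mean was 577 ± 221 (SD, n = 6) against 186 ± 72.2 (SD, n = 7), or 1.64 on the log2 scale with a standard error of 0.28 (95% interval 1.05 to 2.23, adjusted p = 0.108 in limma). Without library 21 the log2 fold change was 1.47. DESeq2 on the reads of 25 libraries gave an adjusted p of 0.00088 and edgeR 0.252, and over 33 alternatives the adjusted p ranged from 0.00088 to 0.9999 and was under 0.05 in 2. Protein libraries held 321 to 677 and empty libraries 262 to 962, with the highest in empty library 24. The protein mean, 570 ± 126 (SD, n = 6), lay near that of lipid. The empty mean, 442 ± 263 (SD, n = 6), lay between lipid and cellulose and was raised by library 24. The other empty libraries held 262 to 455.

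LABE_00071891-RA was low with cellulose and had reads in each lipid library. Its values with lipid were 79.3 in library 9, 81.7 in 14, 20.2 in 18, 38.3 in 21, 20.9 in 28 and 6.27 in 29. With cellulose it was listed at 0 in libraries 13, 16 and 31, at 0.726 in 17, 1.93 in 23, 4.40 in 25 and 1.19 in 27. Its value was above 10 in lipid libraries 9, 14, 18, 21 and 28, protein library 11 and empty library 19. It thus passed the filter of above 10 in at least 5 libraries only through the lipid group, where it was high. The groups did not overlap, but they were parted by 1 read, 7 in lipid library 29 against 6 in cellulose library 25. Library 21 was in the middle of the lipid libraries. The log2 fold change of 4.11 had a standard error of 0.86 (limma adjusted p = 0.597), and it depended on the pseudocount, with 5.84 at 0.1 and 2.59 at 5. The adjusted p ranged from 0.0637 to 0.9999 over 32 alternatives. Without library 21 the log2 fold change was 4.04. Presence was not particular to lipid, since empty library 19 held 48.6 and protein library 11 held 27.3, while protein libraries 10, 20 and 33 and empty library 30 were at 0.

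LABE_00035669-RA had the smallest p among the genes lower with lipid. Its value was 118 in lipid library 9, 199.7 in 14, 121 in 18, 82.8 in 21, 108 in 28 and 119.98 in 29, and with cellulose 123 in library 13, 257 in 16, 212 in 17, 242 in 23, 188 in 25, 208 in 27 and 302 in 31. The groups overlapped through lipid library 14, while the other 5 lipid libraries lay below the lowest cellulose library. The mean was 125 ± 39.4 (SD, n = 6) against 219 ± 56.8 (SD, n = 7), or -0.81 on the log2 scale with a standard error of 0.19 (adjusted p = 0.828 in limma, and from 0.0852 to 0.9999 over 33 alternatives). Library 21 was the lowest of the 6, and without it the log2 fold change was -0.70. Protein libraries had a mean of 150.2 ± 28.4 (SD, n = 6) and empty libraries 204 ± 32.1 (SD, n = 6).

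LABE_00059720-RA was a more abundant gene with a small difference. Its value ranged from 894 (library 21) to 1074 (library 9) with lipid, with 1036 in 14, 1000.4 in 18, 1066 in 28 and 982 in 29. With cellulose it was 1057 in library 13, 1245 in 16, 1551 in 17, 1283 in 23, 1484 in 25, 1351 in 27 and 1378 in 31. The groups overlapped through cellulose library 13 alone. The mean was 1009 ± 66.6 (SD, n = 6) against 1336 ± 163 (SD, n = 7), or -0.40 on the log2 scale with a standard error of 0.09 (adjusted p = 0.828 in limma, and from 0.0569 to 0.9999 over 33 alternatives), and -0.36 without library 21. Protein libraries had a mean of 1116 ± 138 (SD, n = 6) and empty libraries 1151 ± 97.1 (SD, n = 6), between lipid and cellulose.

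**Figure D5:**
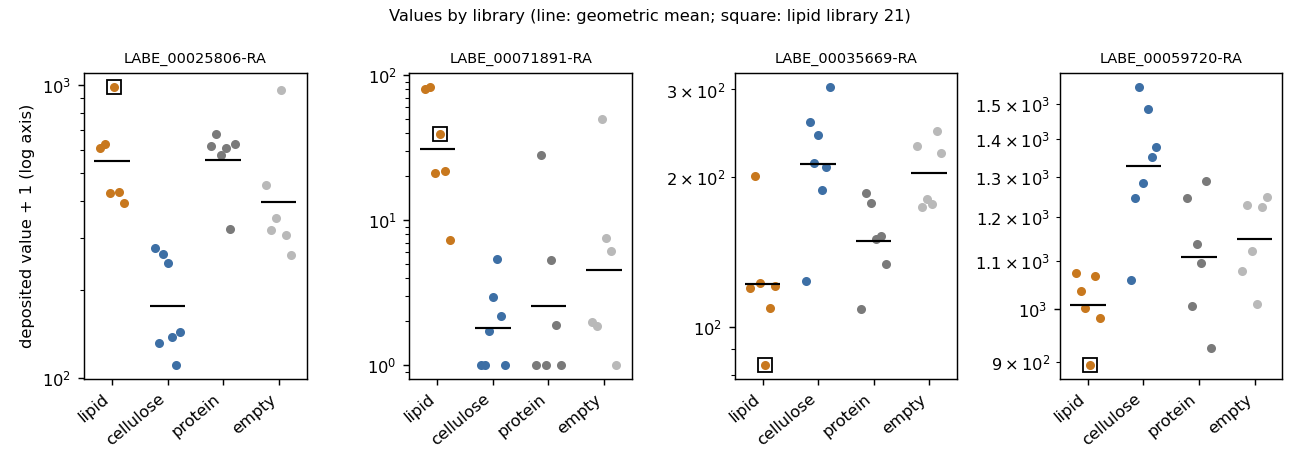
Deposited value plus 1 (log axis) of the 4 genes in each lipid, cellulose, protein and empty library, with the geometric mean of each group as a line and lipid library 21 as a square. Lipid and cellulose do not overlap in LABE_00025806-RA and LABE_00071891-RA, and overlap through 1 library in the other 2.

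Among abundant transcripts, 2 genes with a mean of 5000 or more passed in all 13 fits. They were looked at after their values were seen and are given without identifiers. The first, 15th in mean value of all listed genes, held 67831, 61526, 86064, 85524, 53357 and 51951 in lipid libraries 9, 14, 18, 21, 28 and 29. With cellulose it held 40472 in library 13, 44089 in 16, 41986 in 17, 47306 in 23, 29770.0 in 25, 26599 in 27 and 23315 in 31. The groups did not overlap, and library 18 was as high as library 21. The log2 fold change was 0.92 with a standard error of 0.21 (adjusted p = 0.828 in limma), and 0.85 without library 21. The protein mean of this gene lay near that of lipid, and the empty mean near that of cellulose. Its high level was thus not particular to lipid. The second was lower with lipid, 6995 ± 2039 (SD, n = 6) against 10963 ± 1096 (SD, n = 7), a log2 fold change of -0.71. Its standard error was 0.19 (adjusted p = 0.828 in limma), and without library 21 its log2 fold change was -0.52. Library 21 had the least, 3583, and lipid library 14 the most, 9452, which lay above the lowest cellulose library at 9335. The protein and empty means of this second gene lay between those of lipid and cellulose.

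DESeq2 on all 25 libraries called 3 genes at an adjusted p under 0.05, LABE_00025806-RA and 2 others, both higher with lipid and given without identifiers. The first of these held 234 in library 21 and 7.36 to 222 in the other lipid libraries, against 4.18 to 21.4 with cellulose. Its adjusted p was 0.00102 in DESeq2 and 0.828 in limma. The second held 2496 in library 21 and 409.7 to 1754 in the other lipid libraries, against 195 to 638 with cellulose, with an adjusted p of 0.034 in DESeq2 and 0.828 in limma. In both, library 21 was the highest lipid library, and without it DESeq2 gave adjusted p values of 0.0802 and 0.499. That of LABE_00025806-RA was then 0.0452.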

How the data were processed

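RNA from Segment 1 of 25 intestines was sequenced by the authors as single 75-base reads. Per the labels and methods, reads were trimmed with Trim Galore 0.4.2, mapped with HISAT2 and counted per gene with featureCounts. The authors deposited a normalized signal, each count divided by a DESeq2 size factor. The methods name an Ensembl annotation, and the row identifiers belong to another.

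Here, limma 3.58.1 (R 4.3.3; lmFit, eBayes with trend and robust moderation) was fitted to log2(value + 1) with 4 groups, over genes above 10 in at least 5 libraries. Each deposited value was a whole multiple of 1 step per library (100% within 0.001), so reads were recovered. Rounding of values to whole numbers gives a step of 1. Empty library 19 and lipid library 21 have steps of 0.991 and 1.01 and 0% of their values above 0 are whole, so their reads were also used. edgeR 4.0.16 (quasi-likelihood, TMM), DESeq2 1.42.0 and limma voom were run on 23, 24 and 25 libraries. The tests were tried on simulated data.

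Named genes are the 2 with the smallest p in each direction. The classes, lists and tests were chosen with earlier results of these data known. Libraries come from separate intestines, and the labels give no batch. Alternatives were other pseudocounts (0.1 and 5), filters and scalings, only 2 groups, library weights, 1 surrogate variable (sva 3.50.0), moderation without the robust option and each of 13 libraries left out.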

Additional observations from a re-analysis of the deposited data

Results flagged for a closer look

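The lowest and highest libraries of each group were checked in 26 sets of values, and in 3 of them 1 library lay far off. Chance gives about 1 in 20 for normally distributed values, which these need not be. The sets come from the same libraries and are not independent. Cellulose library 27 had 659 genes at 0, and the next cellulose library 274. It also had a score of 89.4 on the second principal component, and the next cellulose library -6.93. Without this library limma gave 209 genes under p 0.01 for lipid versus cellulose, 137 of them on the list of 208. The gene LABE_00035669-RA had a value of 199.7 in lipid library 14, and 121 in the next lipid library; without library 14 its log2 fold change was -0.95.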

How the results depend on the processing

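The number of genes under p 0.01, 208 in the main analysis, was 115 with limma and 124 with edgeR on the 23 libraries that lack lipid library 21 and empty library 19, 114 with edgeR on 24 libraries and 326 with DESeq2 on 25; leaving out 1 library gave from 106 to 304. The fits on 24 and 25 libraries were chosen after seeing the data. Genes with an adjusted p under 0.05 numbered 3 with DESeq2 on 25 libraries and 1 on 24, and 0 in the other 31 alternatives, with 1371 genes at an unadjusted p under 0.05 when only the 2 groups were fitted. Voom with weights gave 149 genes on 24 libraries and 233 on 25. The other alternatives kept the number within 1.5 times but not always the genes. With 1 surrogate variable 183 genes were called, 104 of them on the list of 208, and with only the 2 groups 289, of which 142 were on it. With edgeR on 25 libraries 56.1% of the genes called were higher with lipid, and with limma 45.7%. The number at a mean of 5000 or more, 11 in the main analysis, ranged from 2 to 29, and that from 1000 to 5000, 28, from 5 to 52. The cause was not tested. All 4 named genes kept their direction and a p under 0.01 in every alternative run for them. They were chosen by their small p in the same data, and the alternatives share most of their libraries. This is therefore a description of the 4 genes and not a separate test.

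With 1 library left out, the difference of lipid minus cellulose ranged from -79.6 to 15.8 for genes at 0, from -0.473 to 0.0479 percentage points for the share of the most abundant gene, and from -0.895 to 0.296 for that of the 100 most abundant genes. For the components it ranged from 13.6 to 45.3 for the first (adjusted p from 0.0189 to 0.693, exact permutation tests), from -3.59 to 28.2 for the second and from -22.4 to 8.94 for the third. No 2 libraries share a number in the labels, so none were paired. Precision was lowest for genes with a mean under 10, where 52 of 1043 had an interval within 2-fold and counting noise was a median of 24.6% of the variance.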
